A study of Mus musculus with 20 samples.

Results

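The promoters described here belonged to 1305 genes, out of 22480 promoters measured in sperm. The RNA of these genes was higher in Sertoli cells than in spermatids and spermatocytes, and at least as high as in spermatogonia. The genes were chosen from expression values that the authors had added to their table from an independent work, and no methylation value entered the choice. The Sertoli value had to exceed the spermatid value by at least 2, to be at or above that of spermatogonia and to be above that of spermatocytes. Genes listed in the sperm proteome, genes annotated with spermatogenesis or reproductive process, imprinted genes and several large symbol families were left out. Of 17133 genes with an expression value, 2267 passed the difference of 2, 1555 also passed the comparisons with spermatogonia and spermatocytes, and 1305 passed all criteria. The measured material was sperm released from the vas deferens and epididymis of 8-week-old male mice, in 4 groups of 5 libraries each. C57BL/6J DEHP and FVB/N DEHP males were sons of dams given bis(2-ethylhexyl)phthalate (DEHP), a plasticizer, in corn oil by mouth at 300 mg/kg/day from day 9 to day 19 of pregnancy. C57BL/6J control and FVB/N control males were sons of dams given corn oil alone on the same days. No allele was altered in either strain, and the males themselves were not dosed after birth. The DNA of all DEHP males went to the sequencing provider in one submission and that of all control males in another, so that treatment and submission cannot be told apart. The sources do not say which males were brothers, and p-values measure only the spread between libraries.

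Sertoli cells are the somatic nurse cells of the seminiferous tubule. They form the blood-testis barrier with tight junctions, secrete transport proteins and growth factors to the germ cells, and lay down basement membrane with the peritubular cells. A gene of a somatic cell is mostly silent in late germ cells, yet many such genes have CG-rich promoters, and CG-rich promoters are mostly free of methylation in sperm. In MBD-sequencing, sheared DNA is captured with a methyl-CpG-binding protein domain and sequenced. A high read number at a promoter therefore needs both methylated DNA and enough CG sites, and a promoter with few CG sites gives few reads even when it is methylated.

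Each promoter was measured over a probe from 2000 bases before to 200 bases after the start of the gene. The bases just upstream of the start are shown for 10 genes, chosen to span high and low levels, the differences described below and the strongest Sertoli expression. Each run holds the 250 bases before the RefSeq start on GRCm38.p6, read on the strand of the gene, with CG sites in capitals.
Fat1, chr8:44949958-44950207, + strand: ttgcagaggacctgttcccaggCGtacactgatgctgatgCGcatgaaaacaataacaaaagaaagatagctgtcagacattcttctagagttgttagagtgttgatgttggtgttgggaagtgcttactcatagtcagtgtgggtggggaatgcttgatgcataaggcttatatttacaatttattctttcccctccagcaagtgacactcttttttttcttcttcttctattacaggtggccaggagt
Sfxn3, chr19:45047326-45047575, + strand: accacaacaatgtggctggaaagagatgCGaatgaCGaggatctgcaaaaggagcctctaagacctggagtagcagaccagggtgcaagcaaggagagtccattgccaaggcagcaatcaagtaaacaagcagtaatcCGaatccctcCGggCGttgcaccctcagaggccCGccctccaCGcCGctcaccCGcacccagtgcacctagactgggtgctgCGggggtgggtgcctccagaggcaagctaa
Ifit2, chr19:34550444-34550693, + strand: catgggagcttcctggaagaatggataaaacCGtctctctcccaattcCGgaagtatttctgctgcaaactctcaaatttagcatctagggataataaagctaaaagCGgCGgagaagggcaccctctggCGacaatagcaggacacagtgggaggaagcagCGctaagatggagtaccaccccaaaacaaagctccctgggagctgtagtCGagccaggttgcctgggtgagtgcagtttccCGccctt
Cat, chr2:103485154-103485403, - strand: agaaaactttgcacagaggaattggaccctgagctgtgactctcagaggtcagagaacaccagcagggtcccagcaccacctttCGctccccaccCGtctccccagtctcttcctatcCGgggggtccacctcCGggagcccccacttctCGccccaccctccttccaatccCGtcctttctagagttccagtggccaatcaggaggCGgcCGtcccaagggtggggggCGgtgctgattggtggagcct
Cnp, chr11:100574689-100574938, + strand: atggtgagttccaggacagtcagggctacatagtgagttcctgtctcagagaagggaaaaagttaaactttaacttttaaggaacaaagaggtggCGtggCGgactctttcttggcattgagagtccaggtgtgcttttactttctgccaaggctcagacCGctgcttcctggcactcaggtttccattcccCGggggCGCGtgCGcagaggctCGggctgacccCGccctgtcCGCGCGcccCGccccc
Abcd3, chr3:121815303-121815552, - strand: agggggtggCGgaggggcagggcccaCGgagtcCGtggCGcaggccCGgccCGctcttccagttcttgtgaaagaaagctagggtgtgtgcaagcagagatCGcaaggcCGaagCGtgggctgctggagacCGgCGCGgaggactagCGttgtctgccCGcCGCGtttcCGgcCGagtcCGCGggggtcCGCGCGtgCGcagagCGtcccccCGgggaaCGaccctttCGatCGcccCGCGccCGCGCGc
Emp1, chr6:135362681-135362930, + strand: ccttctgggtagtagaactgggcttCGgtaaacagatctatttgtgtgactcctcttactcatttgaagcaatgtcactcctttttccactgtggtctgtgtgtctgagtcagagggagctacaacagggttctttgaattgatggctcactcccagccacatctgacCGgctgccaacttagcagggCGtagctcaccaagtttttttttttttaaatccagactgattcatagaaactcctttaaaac
Uxt, chrX:20961979-20962228, - strand: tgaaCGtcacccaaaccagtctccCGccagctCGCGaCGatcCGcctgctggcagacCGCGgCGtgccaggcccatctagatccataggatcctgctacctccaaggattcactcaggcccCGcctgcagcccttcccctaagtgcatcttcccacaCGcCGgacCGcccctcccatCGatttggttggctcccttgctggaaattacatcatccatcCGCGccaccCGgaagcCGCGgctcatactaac
Pcdh19, chrX:133688994-133689243, - strand: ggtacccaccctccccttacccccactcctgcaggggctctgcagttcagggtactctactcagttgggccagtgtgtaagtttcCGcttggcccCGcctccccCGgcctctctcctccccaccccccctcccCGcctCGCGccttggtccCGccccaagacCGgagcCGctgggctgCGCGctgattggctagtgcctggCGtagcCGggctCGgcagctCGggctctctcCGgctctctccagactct
Spp1, chr5:104434861-104435110, + strand: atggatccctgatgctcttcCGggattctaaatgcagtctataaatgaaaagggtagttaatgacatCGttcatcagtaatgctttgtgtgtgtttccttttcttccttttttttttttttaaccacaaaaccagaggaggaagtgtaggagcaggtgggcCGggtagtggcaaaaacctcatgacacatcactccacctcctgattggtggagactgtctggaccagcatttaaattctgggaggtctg
The CG sites in these windows ranged from 2 in Fat1 to 34 in Abcd3. RefSeq windows inside the probe were matched for 976 of the 1305 Sertoli-high genes and 15985 of all 22480 genes. The median number of CG sites in the 250 bases was 15 for the Sertoli-high genes, 10 for all genes and 8 for 627 spermatid-high genes. The spermatid-high genes were taken by the mirrored rule, which 823 genes met.

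No germ cell marker, but only part of the Sertoli markers, exceeded its spermatid value by at least 2 in the Sertoli column. Most textbook Sertoli markers were not among the 1305 genes. Of 30 Sertoli markers, 27 had an expression value, 13 were highest in Sertoli cells among the 4 purified populations and 15 exceeded spermatids by at least 2. Of these 15 markers, 10 carried a reproductive annotation, which the rule left out, and some of the others failed another criterion. The 3 that met all criteria were Aard, Cst12, a secreted cystatin-like protein, and Krt18, an epithelial keratin. Other Sertoli markers, among them Amh, Fshr, Inha and Cst9, stood higher in spermatogonia (9.00, 7.02, 12.3 and 12.3) than in Sertoli cells (6.30, 5.19, 9.77 and 9.05). None of 15 germ cell markers reached a difference of 2, with a median expression value of 4.09 in Sertoli cells and 11.5 in spermatids. Markers of other testis cells were also met. Acta2, the smooth muscle actin of peritubular cells, and the macrophage genes Cd14 and Lyz2 were among the 1305 genes, with Sertoli expression values of 7.33, 7.92 and 9.18. A difference of 2 was reached by 4 of 7 peritubular markers, 2 of 9 macrophage markers, 3 of 7 Leydig markers with a value, 4 of 5 fibroblast markers with a value and none of 7 endothelial markers. None of the Leydig and fibroblast markers met all criteria. The part of other somatic cells in the Sertoli expression column, and of somatic cells in the spermatogonia column, was not tested. The scale of the expression values is not given in the sources used here.

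Among the largest differences between Sertoli cells and spermatids were those of Spp1 (osteopontin, a secreted matrix protein), Ctgf (a matricellular growth factor now named Ccn2), Prss35 and Scd2 (a fatty acid desaturase). Their Sertoli values exceeded the spermatid values by 9.60, 8.89, 8.46 and 8.06. Their promoters in sperm were at low to moderate levels. In C57BL/6J controls the authors' mean was 2.2 normalized reads at Spp1, 3.5 at Ctgf, 4.5 at Scd2 and 9.7 at Prss35. With DEHP the means in C57BL/6J were 4.3, 4.1, 6.2 and 7.8 in the same order, and none of the 4 was called by limma between DEHP and control in either strain.

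The Sertoli-high promoters were richer in CG sites than the whole set. Their median was 60 CG sites in the probe, with quartiles of 44 and 78 and a range from 7 to 237. Over all promoters the median was 45, and over the spermatid-high promoters it was 41. By GC content and CG density, 699 of the 1305 promoters (53.6%) were of the high-CG class, 431 (33.0%) of the intermediate and 175 (13.4%) of the low class. Over all promoters these shares were 37.4%, 27.1% and 35.5%. The start site of the probe lay within 500 bases of an annotated GENCODE start of the same gene for 1293 Sertoli-high genes (99.1%). Exons of another protein-coding gene reached into the probe for 226 of them (17.3%), against 21.2% of all promoters. Among the 1305 probes, 164 shared bases with the probe of another gene, so that the same reads counted for both.

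Levels in sperm were low at most of these promoters. The median of the authors' means was 4.5 normalized reads in C57BL/6J control, 4.6 in C57BL/6J DEHP, 2.8 in FVB/N control and 4.2 in FVB/N DEHP. The medians over all promoters were 5, 5.3, 3 and 4.9. Among the Sertoli-high promoters 91 (6.97%) reached 10 reads in all 4 groups, against 13.6% of all promoters, and 8 (0.613%) stayed under 1 read in all 4 groups. The authors' SD was large beside such means. At promoters with a mean between 5 and 10 reads, the median SD was 0.435 of the mean in C57BL/6J control and 0.595 of the mean in FVB/N control. In both DEHP groups it was smaller, 0.394 of the mean for C57BL/6J and 0.364 of the mean for FVB/N.

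The level varied with the number of CG sites, and the Sertoli-high promoters stood below all promoters at 21 to 60 sites. At 21 to 40 CG sites, where the median over all promoters was highest, 209 Sertoli-high promoters had medians of 6.6 reads in the C57BL/6J and 3.5 in the FVB/N controls. All 5279 promoters in that range had medians of 14.2 and 7.7, and 228 spermatid-high promoters had 14.45 and 7.9. Means of 10 or more reads in C57BL/6J control were found at 39.7% of the Sertoli-high promoters of that range, at 58.9% of all and at 60.5% of the spermatid-high promoters. At 41 to 60 sites, the range with the most Sertoli-high promoters (391), the medians were 4.3 against 5.2 reads over all promoters in C57BL/6J control and 2.9 against 3.1 in FVB/N control, and 22% against 29.3% had 10 or more reads in C57BL/6J control. Above 60 CG sites the sets lay close together, with medians in C57BL/6J control of 4.4 and 4.5 at 61 to 80 sites and of 4 and 3.7 at 81 to 100 sites for Sertoli-high and all promoters. At 1 to 20 sites the order was the other way round, with 5.2 against 3.5 reads. These medians are descriptions over promoters, which are not replicates, and no test was made of them.

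**Figure D1:**
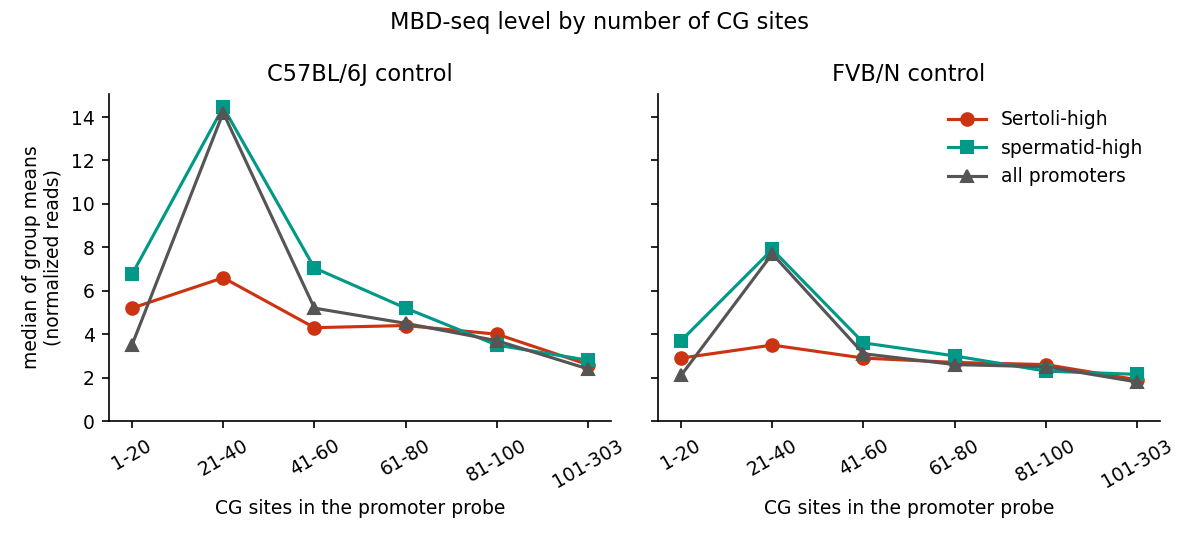
Median of the authors' group means in normalized reads (y axis) by the number of CG sites in the probe (x axis, 6 ranges), for Sertoli-high promoters, spermatid-high promoters and all promoters, in the control group of each strain. At 21 to 40 sites the Sertoli-high medians were 6.6 (C57BL/6J) and 3.5 (FVB/N), below the medians of 14.2 and 7.7 over all promoters.

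By promoter class the order between the sets was mixed. The 175 Sertoli-high promoters of the low-CG class had a median of 10.5 reads in C57BL/6J control and 5.6 in FVB/N control, the 431 of the intermediate class 4.7 and 3, and the 699 of the high class 3.7 and 2.3. The medians over all promoters were 7.7 and 4.2 in the low class, 5.7 and 3.5 in the intermediate and 3.5 and 2.2 in the high class. The 65 Sertoli-high promoters on the X chromosome were lower than those on autosomes. Their median was 1.4 reads in C57BL/6J control and 1.1 in FVB/N control, against 4.7 and 2.9 at 1239 autosomal ones. All 753 X-linked promoters had medians of 1.4 and 1.2, so the low level was shared by the whole chromosome. A sperm carries either an X or a Y chromosome.

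The 5 highest promoters belonged to Hsd3b7, Nexn, Fat1, Klhl2 and Sh3d19. Hsd3b7 encodes a steroid dehydrogenase of bile acid synthesis, Nexn an actin-binding protein, and Fat1 a giant cadherin of cell contacts. At Hsd3b7 the authors' means were 86.4 ± 29.7 without and 18.4 ± 7.5 with DEHP in C57BL/6J, and 64.3 ± 12.1 without and 21.0 ± 8.0 with DEHP in FVB/N. At Fat1 they were 53.4 ± 12.8, 27.9 ± 9.0, 38.7 ± 12.8 and 30.6 ± 5.5. The position of 2 of the 5 probes qualifies the word promoter. The start site of the Hsd3b7 probe (chr7:127795074-127797273) lay 3530 bases before the GENCODE start of Hsd3b7, and the probe held no exon of it but exons of Setd1a. The nearest annotated start of Klhl2 lay at -19799 bases from the start site of its probe (chr8:64779666-64781865), which thus sat inside the gene. The probes of Nexn, Fat1 and Sh3d19 sat within 2 bases of their annotated starts. The window shown above for Fat1, with 2 CG sites in 250 bases, is CG-poor, although the whole probe held 37.

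The 5 lowest promoters with at least 30 CG sites belonged to Pcdh19, Appl1, Uxt, Nxt2 and Mmgt1, of which all but Appl1 lie on the X chromosome. Pcdh19, a protocadherin with 80 CG sites, had means of 0.2 ± 0.5, 0.0 ± 0.0, 1.1 ± 1.3 and 0.2 ± 0.4 in C57BL/6J without and with DEHP and then in FVB/N without and with DEHP. Uxt, a prefoldin-like chaperone gene with 45 CG sites, had 0.0 ± 0.0, 1.0 ± 1.4, 0.5 ± 1.1 and 0.5 ± 0.7. The ranges that the SDs allow overlapped between groups at both genes. Neither was called in any comparison by limma.

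The first comparison asked whether prenatal DEHP shifted methylation at the Sertoli-high promoters of C57BL/6J sperm. Calls were made with limma's moderated test on the group means and SDs, with Benjamini-Hochberg adjustment over all 22480 promoters and a threshold of 0.05. With the means as deposited, 29 Sertoli-high promoters (2.22%) were higher and 141 (10.8%) lower in DEHP. Over all promoters 2.93% were higher and 13.3% lower, and over the spermatid-high promoters 2.31% and 14.5%. The split of directions turned with the scale of the means. The group means summed to 226268 reads over all promoters in C57BL/6J control and to 153283 in C57BL/6J DEHP, and after scaling to equal sums 123 Sertoli-high promoters were higher and 30 lower, against 11.6% and 3.08% of all promoters. After scaling to equal medians 17 were higher and 174 lower, against 2.45% and 15.8% of all promoters. Called in one direction on all 3 scales were 17 higher and 30 lower promoters (1.30% and 2.30%), beside 2.45% and 3.08% of all promoters. The median log2 ratio of DEHP over control was -0.10 at the Sertoli-high promoters and -0.10 over all promoters as deposited, and 0.31 and 0.33 with equal sums. Only the promoters called on all 3 scales are described as higher or lower without that reservation.

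**Figure D2:**
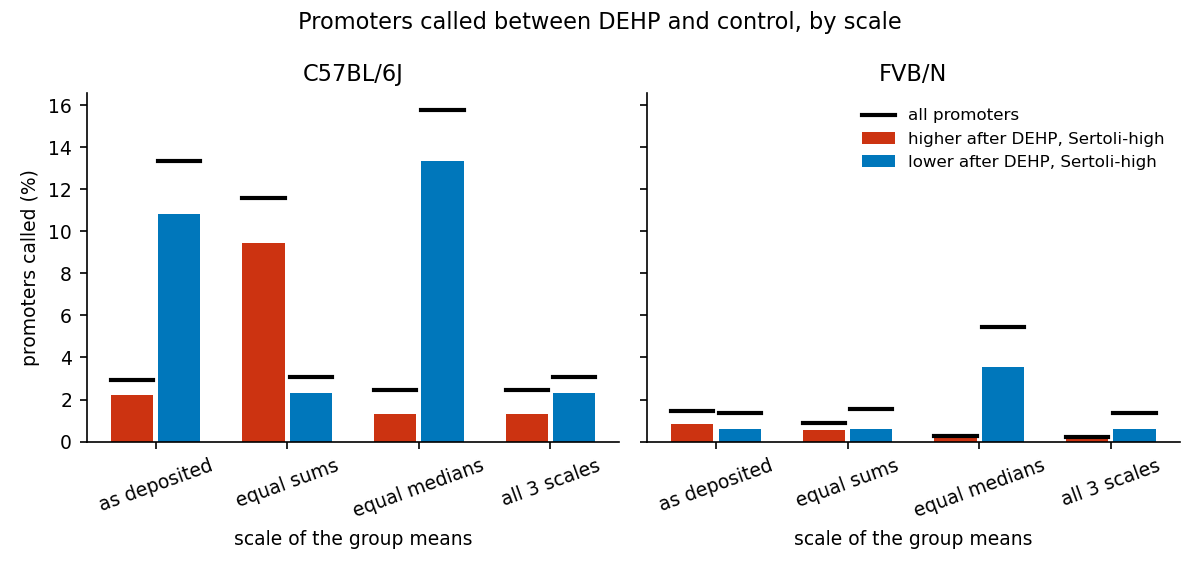
Share of promoters called between DEHP and control (y axis, percent) for each scale of the group means (x axis), in C57BL/6J (left) and FVB/N (right), with bars for the Sertoli-high promoters and black lines for all promoters. In C57BL/6J the larger share changes from lower (10.8%, as deposited) to higher (9.43%, equal sums), and on all scales together 1.30% were higher and 2.30% lower.

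The 30 lower promoters had been well covered in controls. Their median was 26.7 reads in C57BL/6J control and 8.15 in C57BL/6J DEHP, and their log2 ratios ran from -2.17 to -1.39. Calls were concentrated at the higher levels: of 207 Sertoli-high promoters with a mean over the groups of 10 or more reads, 26 (12.6%) were among the 30, beside 11.3% of all promoters at that level, whereas of 462 Sertoli-high promoters with 2 to 5 reads 1 was. The 30 comprised 13 high-CG, 13 intermediate and 4 low-CG promoters, and 14 of their probes held exons of another coding gene.

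The 5 lower promoters named by rule were Hsd3b7, Nexn, Sfxn3, Ifit2 and Cxcl16, at each of which the lowest control library lay above the highest DEHP library. That separation follows from the means and SDs alone, since a library of 5 can lie at most 1.79 SD from its group mean. Hsd3b7 fell from 86.4 ± 29.7 to 18.4 ± 7.5 (log2 ratio -2.17 ± 0.33, adjusted p = 6.67e-05), over the Setd1a exons noted above. Nexn fell from 62.5 ± 16.2 to 16.1 ± 7.0 (-1.89 ± 0.31, adjusted p = 0.00011). Sfxn3, a mitochondrial serine transporter, fell from 27.1 ± 8.1 to 6.5 ± 3.2 (-1.91 ± 0.33, adjusted p = 5.46e-05), and its window above holds 10 CG sites. Ifit2, an interferon-induced antiviral protein, fell from 30.3 ± 5.3 to 7.5 ± 2.2 (-1.88 ± 0.20, adjusted p = 5.54e-05). Cxcl16, a membrane-bound chemokine, fell from 32.7 ± 7.5 to 10.4 ± 2.5 (-1.56 ± 0.20, adjusted p = 0.000371). Exons of Pdzd7 reach into the Sfxn3 probe, exons of Zmynd15 into that of Cxcl16 and exons of Sftpc into that of Bmp1, described below, so the signal cannot be given to 1 gene there. In all, 20 Sertoli-high promoters (1.53%, beside 1.42% of all promoters) were separated downward and 1 upward (0.0766%, beside 0.249%). Of the 20, 10 were among the 30 promoters called on all scales.

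The 17 higher promoters had been low in controls, between 0.0 reads at Flna and 4.3 at Sema3d. Their median was 1.4 reads in C57BL/6J control and 5 in C57BL/6J DEHP, and their log2 ratios ran from 1.06 to 2.00. Cnp, a phosphodiesterase known from myelin, rose from 0.5 ± 0.6 to 5.0 ± 4.4 (2.00 ± 0.54, adjusted p = 0.00225). Cat, the peroxide-degrading enzyme catalase, rose from 0.7 ± 1.1 to 4.6 ± 2.3 (1.72 ± 0.49, adjusted p = 0.00616). Cytip, a cytohesin-binding scaffold protein with 13 CG sites in its probe, rose from 2.6 ± 1.9 to 9.9 ± 6.6 (1.60 ± 0.52, adjusted p = 0.00214). Zscan26, a zinc finger protein, rose from 2.3 ± 2.2 to 7.9 ± 3.1 (1.43 ± 0.49, adjusted p = 0.00723). At these 4 genes the ranges that the SDs allow for the libraries overlapped between groups. Rcan2, a regulator of calcineurin, was the 1 promoter separated upward, from 2.8 ± 0.6 to 7.1 ± 1.0 (1.09 ± 0.13, adjusted p = 0.0400), but it missed the threshold with equal medians (adjusted p = 0.052).

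Other promoters of these sets, named after their values were seen, show the range of functions. Among the lower ones, Epha2, an ephrin receptor kinase, went from 35.4 ± 11.2 to 9.5 ± 4.5 in C57BL/6J and from 15.5 ± 6.8 to 8.0 ± 1.2 in FVB/N. Snx17, a sorting nexin of endosomes, went from 28.6 ± 10.4 to 6.6 ± 2.4 and from 14 ± 6.0 to 10.8 ± 1.3. Ndst1, an enzyme of heparan sulfate synthesis, went from 22.9 ± 3.1 to 7.1 ± 2.4 with separated libraries in C57BL/6J, and from 8.6 ± 5.0 to 11.1 ± 3.9 in FVB/N. It is one of the 4 lower promoters whose ratio was above 0 in FVB/N, with Ralb, Slc50a1 and Sparc. Sox4, a transcription factor of progenitor cells, and Msmo1, an enzyme of cholesterol synthesis, both started at 18.2 reads in C57BL/6J control and fell to 5.6 ± 1.2 and 5.8 ± 2.3, with separated libraries. Among the higher ones, Sema3d, a secreted guidance molecule, went from 4.3 ± 0.7 to 10.4 ± 3.3 in C57BL/6J and from 1.9 ± 2.6 to 5.8 ± 1.6 in FVB/N. Tm4sf1, a tetraspanin-like surface protein with 11 CG sites, went from 2.8 ± 1.4 to 7.8 ± 1.7 and from 4.4 ± 4.2 to 7.0 ± 2.1. Slc39a11, a zinc transporter, went from 0.2 ± 0.5 to 2.3 ± 1.0 and from 2.3 ± 1.6 to 2.6 ± 1.4. The 3 genes were not called in FVB/N. Exons of Eif2b4 reach into the Snx17 probe, exons of Efna1 into that of Slc50a1 and exons of Cog1 into that of Slc39a11.

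**Figure D3:**
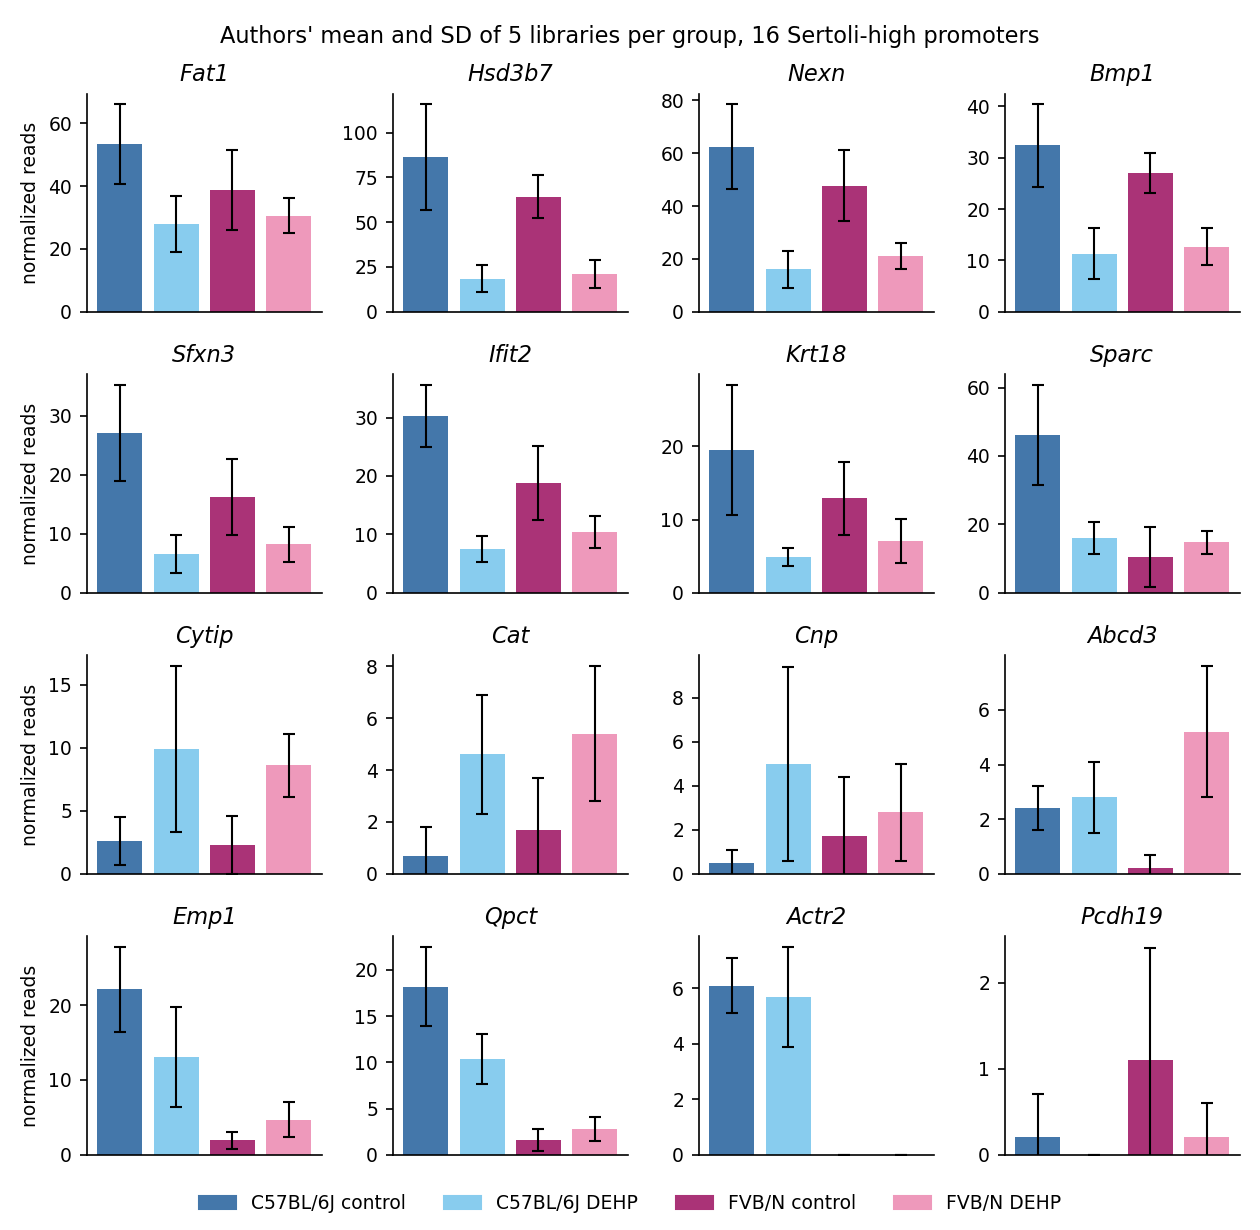
Authors' mean (bars, normalized reads) and SD of 5 libraries (error bars) in the 4 groups at 16 Sertoli-high promoters, each panel with its own y axis from 0. Hsd3b7, Nexn and Bmp1 fell with DEHP in both strains, Cytip, Cat and Cnp were higher with DEHP in C57BL/6J, and Actr2 stood at 0 in both FVB/N groups.

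The second comparison asked the same of FVB/N sperm, in which fewer Sertoli-high promoters were called. As deposited, 11 were higher (0.843%) and 8 lower (0.613%) in DEHP, beside 1.44% and 1.35% of all promoters. With equal sums the counts were 7 and 8 (all promoters 0.894% and 1.53%), and with equal medians 2 and 46 (0.254% and 5.47%). On all 3 scales 2 were higher (0.153%, beside 0.227%) and 8 lower (0.613%, beside 1.35%). The spread between the libraries of FVB/N control was larger than in C57BL/6J control, as given above, and the smaller number of calls is no test of a difference between strains. Separated libraries were found at 6 Sertoli-high promoters upward (0.46%, beside 0.774% of all promoters) and 4 downward (0.307%, beside 0.859%). The median log2 ratio was 0.32 at the Sertoli-high promoters and 0.35 over all promoters as deposited, and -0.22 and -0.17 with equal medians.

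The 8 lower promoters in FVB/N were Bace1, Bmp1, Cadm4, Ddr2, Fabp5, Hsd3b7, Nexn and Trim47. All 8 were also among the 141 called lower in C57BL/6J as deposited, which is 5.67% of those 141, and 3 of them (Bmp1, Hsd3b7 and Nexn) were called on all scales in both strains. Over all promoters 292 of the 303 lower in FVB/N were also lower in C57BL/6J as deposited, and 204 on all scales, so the overlap was general. Hsd3b7 fell from 64.3 ± 12.1 to 21.0 ± 8.0 (-1.57 ± 0.26, adjusted p = 0.00419) and Nexn from 47.7 ± 13.4 to 21.0 ± 4.9 (-1.15 ± 0.23, adjusted p = 0.0330). Ddr2, a collagen-binding receptor kinase, fell from 38.8 ± 4.3 to 14.9 ± 5.1 (-1.32 ± 0.22, adjusted p = 0.00967). Bmp1, the protease that trims procollagen, fell from 27.0 ± 3.9 to 12.7 ± 3.6 (-1.03 ± 0.19, adjusted p = 0.0401). At Hsd3b7, Ddr2 and Bmp1 the libraries were separated. Bace1, an aspartic protease, fell from 27.5 ± 6.3 to 12.2 ± 3.0 (-1.11 ± 0.20, adjusted p = 0.0398), and the ranges that its SDs allow overlapped. In C57BL/6J, Ddr2 went from 47.2 ± 10.9 to 19.5 ± 7.6 and Bace1 from 33.4 ± 7.5 to 13.1 ± 4.4, calls that were lost with equal sums.

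The 2 higher promoters on all scales in FVB/N were Abcd3 and Tax1bp3, with 101 and 99 CG sites in the probe. Abcd3, a fatty acid transporter of peroxisomes, rose from 0.2 ± 0.5 to 5.2 ± 2.4 (2.37 ± 0.37, adjusted p = 0.0303). Tax1bp3, a small PDZ protein, rose from 0.2 ± 0.4 to 2.6 ± 0.4 (1.58 ± 0.23, adjusted p = 0.0358), with separated libraries, and its probe holds exons of Emc6. In C57BL/6J, Abcd3 and Tax1bp3 went from 2.4 ± 0.8 to 2.8 ± 1.3 and from 3.3 ± 2.9 to 2.7 ± 1.6, without a call. Ctss, a lysosomal protease, Nt5e, an ectonucleotidase, and Cobll1 were higher as deposited, with separated libraries, but not with equal medians. Their means went from 2.7 ± 0.9 to 11 ± 2.9, from 1.7 ± 1.6 to 7.7 ± 0.9 and from 3.0 ± 2.0 to 10.4 ± 1.4.

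**Figure D4:**
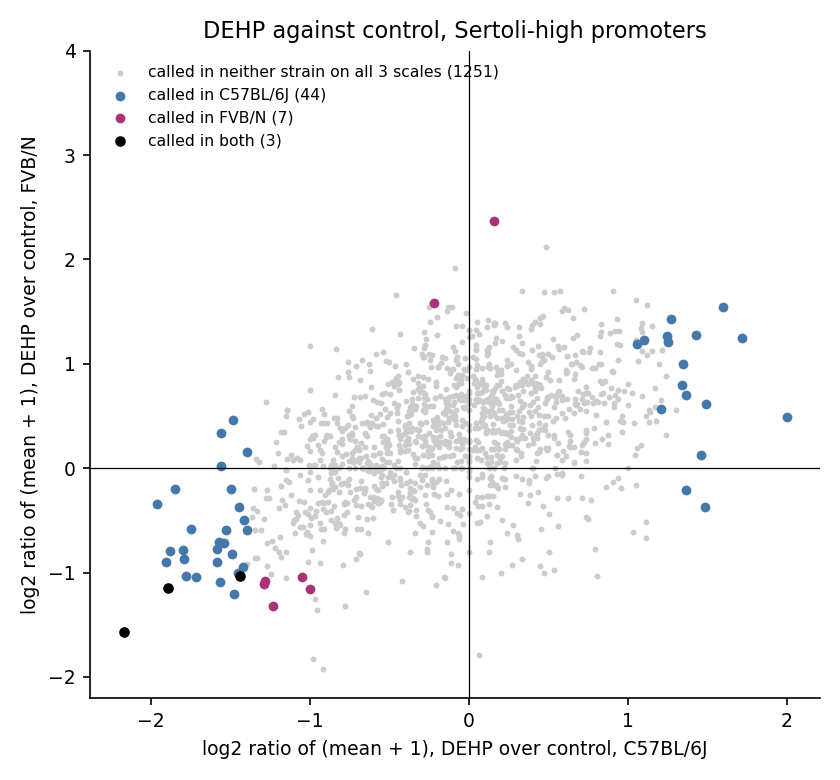
Log2 ratio of (mean + 1), DEHP over control, in C57BL/6J (x axis) and FVB/N (y axis), 1 point for each of 1305 Sertoli-high promoters, coloured by the strain in which it was called on all 3 scales. The 3 promoters called in both strains (Hsd3b7, Nexn and Bmp1) lie at the lower left, and the 17 that were higher in C57BL/6J lie at the right.

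The ratios of the promoters called in one strain were then read in the other, whose libraries had not been used for the call. The 2 strains share no library, but in each of them DEHP and submission coincide. Of the 30 promoters lower in C57BL/6J, 26 had a ratio below 0 in FVB/N, with a median of -0.78, and 3 were called there. Over all promoters, 204 of the 693 lower in C57BL/6J on all scales were lower on all scales in FVB/N. Of the 17 that were higher in C57BL/6J, 15 had a ratio above 0 in FVB/N, with a median of 1, and 0 were called by limma. Over all promoters, 14 of the 551 higher in C57BL/6J on all scales were higher on all scales in FVB/N. Over all Sertoli-high promoters 905 of 1305 ratios in FVB/N were above 0 and 363 below, as deposited. At Sertoli-high promoters with 10 or more reads over the groups, the median ratio in FVB/N was -0.11, beside -0.05 over all promoters at that level. Flna, on the X chromosome, and Cyfip1 were the 2 of the 17 with a ratio below 0 in FVB/N, and they are named here after their values were seen.

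Structural genes of the tubule wall came first among the fixed gene lists. Sertoli-high means here that all criteria of the rule were met, the exclusions by annotation among them. Of 43 extracellular matrix genes, 40 had an expression value, 30 exceeded spermatids by at least 2 and 15 were Sertoli-high. At these 15 the median was 6.1 reads in C57BL/6J control and 3.2 in FVB/N control. The 15 had a median log2 ratio of -0.08 with DEHP in C57BL/6J and of 0.46 with DEHP in FVB/N. Sparc was the 1 of the 15 called lower in C57BL/6J, and none was called in FVB/N. Of 25 other genes of the list that were measured 3 were lower in C57BL/6J as deposited, beside 13.3% of all promoters. Of the 15, the largest expression differences were those of Col4a1, a chain of basement membrane collagen, Thbs1, a matricellular glycoprotein, and Col5a2, a fibrillar collagen chain. Col4a1 went from 11.5 ± 7.1 to 6.8 ± 1.5 in C57BL/6J and from 9.1 ± 5.2 to 8.3 ± 2.3 in FVB/N, and its probe holds an exon of Col4a2. Thbs1 went from 3.0 ± 2.7 to 3.4 ± 1.7 and from 1.0 ± 1.7 to 0.9 ± 0.9. Col5a2 went from 2.1 ± 2.0 to 4.5 ± 2.0 and from 1.0 ± 1.7 to 3.8 ± 1.7.

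Of 30 junction genes of the blood-testis barrier, 29 had an expression value and 14 exceeded spermatids by at least 2. All criteria were met by 6 (Cdh1, Ctnnd1, Dsp, F11r, Itga6 and Jam2), and none of the 6 was called in limma in either strain. Dsp, the desmosomal plaque protein, went from 25.5 ± 9.5 to 15.5 ± 6.9 in C57BL/6J and from 20.2 ± 3.8 to 11 ± 3.8 in FVB/N. Itga6, a laminin receptor chain, went from 3.3 ± 2.2 to 5.9 ± 2.1 and from 4.8 ± 1.8 to 7.9 ± 3.5. Jam2, a junctional adhesion molecule, stayed between 3.8 and 4.8 in the 4 groups. Of 23 other junction genes 3 were lower in C57BL/6J as deposited, beside 13.3% of all promoters.

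Among 24 cytoskeletal and contractile genes 10 were Sertoli-high, with a median of 10.2 reads in C57BL/6J control and 6.2 in C57BL/6J DEHP. Krt18 fell from 19.5 ± 8.9 to 4.9 ± 1.2 in C57BL/6J (-1.80 ± 0.31, adjusted p = 0.000137) and was called on all scales. Flna, an actin crosslinker, rose from 0.0 ± 0.0 to 1.8 ± 1.5 (adjusted p = 0.0295), also on all scales, at a level close to that of no reads. Tpm4, a tropomyosin, was lower as deposited (18.3 ± 6.6 to 9.0 ± 4.1, adjusted p = 0.0284) but not with equal sums. Cnn2 and Cnn3, calponins of actin filaments, went from 1.4 ± 1.3 to 1.9 ± 1.2 and from 13.9 ± 3.3 to 8.1 ± 1.5, without a call. As deposited, 1 of the 10 was higher and 2 were lower in C57BL/6J, and none was called in FVB/N. Among 14 other genes of that list 1 was higher and 3 were lower in C57BL/6J and 1 was lower in FVB/N. Over all promoters the shares were 2.93% higher and 13.3% lower in C57BL/6J and 1.35% lower in FVB/N. The 10 had a median log2 ratio of -0.63 with DEHP in C57BL/6J and of 0.12 with DEHP in FVB/N, beside -0.10 and 0.35 over all promoters. Ratios varied with the level, and the 10 stood above the median of 5 reads over all promoters in C57BL/6J control. All promoters with 5 to 10 reads over the groups had medians of -0.18 and 0.50, and those with 10 or more -0.78 and -0.05. The part of the level in the ratios of the 10 was not tested.

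Signalling genes came next. Of 32 genes of TGF-beta, BMP and activin signalling 7 were Sertoli-high (Ctgf, Fstl1, Ltbp1, Ltbp2, Ltbp3, Smad3 and Tgfb2). Among them the ligand Tgfb2 was lower in C57BL/6J as deposited (26.2 ± 7.2 to 12.1 ± 5.0, adjusted p = 0.0124) and not with equal sums, while in FVB/N its means were 12.8 ± 6.6 and 17.3 ± 4.7. Fstl1, a secreted antagonist of the follistatin family, went from 1.4 ± 1.0 to 3.2 ± 0.6 in C57BL/6J and from 4.1 ± 3.0 to 1.5 ± 0.5 in FVB/N, without a call. Of 25 other genes of that list 3 were lower in C57BL/6J as deposited, beside 13.3% of all promoters. Ltbp2, a latency protein of the matrix, stayed between 3.8 and 4.5 reads. The 5 growth factors and receptors (Fgf2, Fgfr1, Igfbp3, Pdgfa and Pdgfrb) were not called between DEHP and control. As deposited, of 22 others of that list 1 was higher and 5 were lower in C57BL/6J and 1 was lower in FVB/N. Over all promoters these shares were 2.93%, 13.3% and 1.35%. Pdgfrb, the PDGF receptor of mesenchymal cells, was higher in C57BL/6J than in FVB/N controls as deposited (28.3 ± 8.9 against 9.8 ± 8.8, adjusted p = 0.0414). Igfbp3, an IGF carrier with 104 CG sites, stayed at or under 0.9 reads in every group. Jag1 alone represented the Notch, Hedgehog and Wnt genes, with 1.7 ± 0.7, 2.6 ± 1.4, 0.9 ± 1.0 and 0.8 ± 0.8 reads, and Ier3 the immediate early genes, with 4.3 ± 1.4, 4.5 ± 0.5, 3.3 ± 2.0 and 3.6 ± 2.1. None of 20 nuclear receptors measured met the rule.

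Of 24 secreted and transport proteins of Sertoli cells 6 were Sertoli-high. Fabp5, a fatty acid carrier, fell in FVB/N from 28.5 ± 6.1 to 13.3 ± 3.6 (adjusted p = 0.0459, called on all scales) and in C57BL/6J as deposited from 33.4 ± 11.3 to 15.6 ± 6.1 (adjusted p = 0.0134, lost with equal sums). Abca1, the cholesterol exporter, went from 6.1 ± 4.3 to 7.5 ± 1.4 in C57BL/6J and from 6.3 ± 3.7 to 8.7 ± 2.6 in FVB/N. Cst12 went from 7.5 ± 3.1 to 6.6 ± 3.1 and from 7.8 ± 6.1 to 8.5 ± 2.4. The ranges that the SDs allow overlapped at Abca1 and Cst12 in both strains. As deposited, 2 of 18 other genes of that list were lower in C57BL/6J, beside 13.3% of all promoters.

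Of 24 genes of antigen presentation, complement and the interferon response 5 were Sertoli-high, and calls went both ways. Tapbp, which loads peptides on class I molecules, fell in C57BL/6J from 11.5 ± 6.9 to 3.5 ± 1.4 (-1.47 ± 0.41, adjusted p = 0.00266, on all scales), with exons of Zbtb22 in its probe. Ifitm3, an antiviral membrane protein, was lower in C57BL/6J as deposited with separated libraries (37.5 ± 7.9 to 14.9 ± 3.1, adjusted p = 0.00291), but not with equal sums (adjusted p = 0.088). In FVB/N, Ifit1, an interferon-induced antiviral protein with exons of Ifit1bl2 in its probe, was higher as deposited, from 1.6 ± 1.8 to 7.4 ± 2.4 (adjusted p = 0.0491). The call was lost with equal medians. H2-K1, a class I antigen, went from 2.1 ± 1.2 to 2.4 ± 1.5 in C57BL/6J and from 2.1 ± 1.9 to 0.9 ± 0.7 in FVB/N. The promoters differed in CG content, with 11 sites at Ifit1, 35 at Ifitm3 and 80 at Tapbp. As deposited, 4 of 19 other genes of that list were lower in C57BL/6J, beside 13.3% of all promoters, and none was called in FVB/N.

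The third comparison set the strains side by side in the controls, which were in one submission. As deposited, 21 Sertoli-high promoters (1.61%) were higher and 1 (0.0766%) lower in C57BL/6J than in FVB/N, beside 2.54% and 0.0267% of all promoters. The sums of the means differed between the groups (226268 and 141092 reads), and with equal sums 2 promoters, Emp1 and Qpct, were higher and 0 lower in limma, beside 0.0712% and 0.0267% of all promoters. The median log2 ratio was 0.52 as deposited, 0.54 over all promoters, and -0.01 with equal sums. On all 3 scales 1 promoter was higher (0.0766%, beside 0.0623% of all). That was Emp1, an epithelial membrane protein, with 22.1 ± 5.7 reads in C57BL/6J control and 1.9 ± 1.2 in FVB/N control (2.99 ± 0.31, adjusted p = 0.000889). Separated libraries were found at 9 promoters (0.690%, beside 1.06% of all), each higher in C57BL/6J.

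Qpct, Plekhb1, Myl12a and Actr2 were also higher in C57BL/6J controls, with separated libraries, but not on all scales. Qpct, a glutaminyl cyclase, had 18.2 ± 4.3 against 1.6 ± 1.2 reads, Plekhb1, a membrane-binding protein, 35.1 ± 6.1 against 5.8 ± 4.1, and Myl12a, a myosin light chain, 14.4 ± 2.3 against 2.2 ± 3.2, with exons of Myom1 in its probe. Actr2, a subunit of the actin-nucleating Arp2/3 complex, was listed at 0.0 ± 0.0 in both FVB/N groups and at 6.1 ± 1.0 and 5.7 ± 1.8 in C57BL/6J. Atp11b, a phospholipid flippase, was the 1 promoter called lower, with 0.2 ± 0.5 against 5.0 ± 2.4 reads (-2.32 ± 0.37, adjusted p = 0.0383). Known sequence variants between the strains lay in 580 of the 1305 probes (44.4%). Of 164 probes with 10 or more variants, 10 were higher (6.10%) in C57BL/6J controls as deposited. Of 725 without a variant, 5 were (0.690%). Over all promoters the shares were 11.2% and 0.792%. The part of the variants in the read numbers was not tested. Actr2 had 32 variants, Qpct 34, Atp11b 30, Emp1 18, Myl12a 8 and Plekhb1 5.

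Between the DEHP groups, also in one submission, 8 Sertoli-high promoters were higher in C57BL/6J and 1 lower as deposited, beside 0.912% and 0.0712% of all promoters. On all scales 7 were higher and 1 lower, beside 0.627% and 0.0712%. The 7 were Actr2, Emp1, Gcsh, Glt25d1, Phlda3, Plekhb1 and Qpct, and the lower one was Samd8, named here after their values were seen. Of these 8, 7 had 10 or more variants in the probe, with Plekhb1 the exception. Gcsh, a subunit of the glycine cleavage system, had 5.4 ± 1.5 reads in C57BL/6J DEHP and 0.2 ± 0.4 in FVB/N DEHP. Samd8, a ceramide phosphoethanolamine synthase, had 2.3 ± 1.5 and 7.2 ± 3.2, with exons of Dusp13 in its probe.

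**Figure D5:**
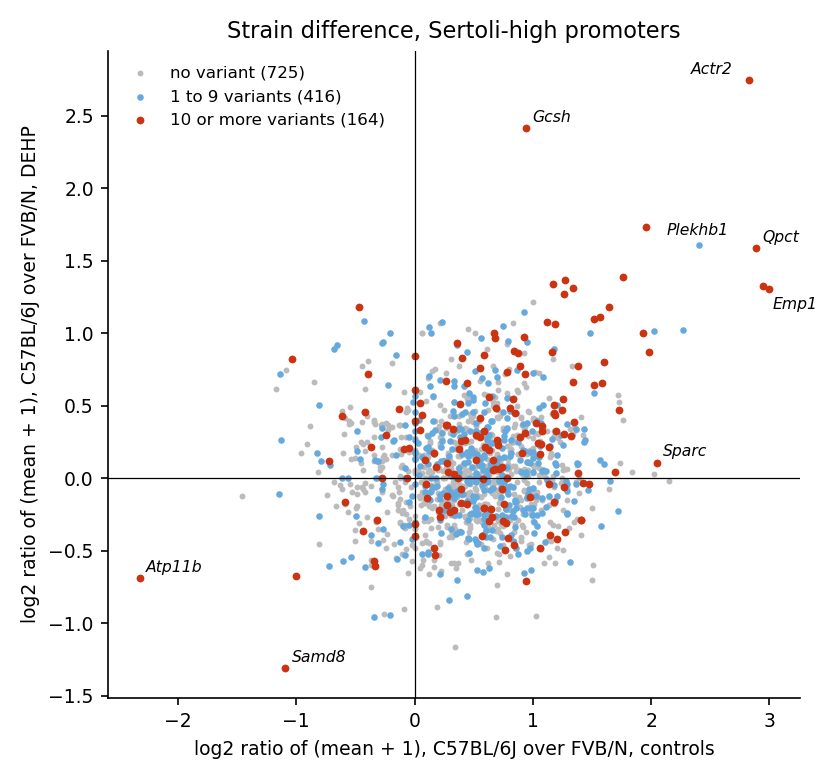
Log2 ratio of (mean + 1), C57BL/6J over FVB/N, in controls (x axis) and in DEHP groups (y axis), 1 point for each of 1305 Sertoli-high promoters, coloured by the number of known variants between the strains in the probe. Points to the upper right, such as Actr2, Qpct and Emp1, mostly have 10 or more variants, and the cloud lies right of 0 on the x axis, with a median of 0.52.

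The last comparison asked where the response to DEHP differed between the strains, with the interaction as contrast. Only Sparc was called among the Sertoli-high promoters, as deposited, beside 0.0712% of all promoters. Sparc encodes a secreted collagen-binding glycoprotein, and its probe (chr11:55419881-55422080, with 31 CG sites and 16 variants) lay at its annotated start. It went from 46.2 ± 14.6 to 15.9 ± 4.7 in C57BL/6J (-1.48 ± 0.27, adjusted p = 0.000885) and from 10.4 ± 8.7 to 14.7 ± 3.3 in FVB/N (0.46 ± 0.51, adjusted p = 0.48). The DEHP groups lay close together, and the C57BL/6J controls stood above the other 3 groups. The interaction had an adjusted p of 0.0283 as deposited and was lost with equal sums (adjusted p = 0.773), equal medians (adjusted p = 0.654) and the log2 scale (adjusted p = 0.197).

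The threshold of 2 on the expression difference cuts a continuous range. Just inside it lay Man1a, Nus1 and Anln, with differences of 2.00 to 2.01, and just outside Cpne8, Pdgfrl and Tmem43, each also rounding to 2.00. In C57BL/6J control the 3 inside had authors' means of 1.2 ± 1.2, 2.3 ± 1.6 and 1.6 ± 0.6 reads, and the 3 outside 2.4 ± 1.2, 10.1 ± 5.6 and 12.4 ± 4.3.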

How the data were processed

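MBD-sequencing was performed on sperm DNA in 20 libraries, 5 per group. Per the authors, Bowtie 0.12.7 placed the read-pairs on mm10. Pairs that were discordant, mapped to several places or held no CpG were removed, where a CpG made by a variant counted too. The authors counted the remaining pairs per probe, with normalization by edgeR. The deposited signal is the mean, with its SD, of normalized reads per group, to 1 decimal. Per the paper, the DEHP libraries had on average more read-pairs and slightly longer reads than the control libraries. Single-library values were not used here, so the depth of each library is unknown, and the deposited SD is the measure of error. The expression score per gene was added by the authors from an independent work. The authors' fold changes, p-values and FDR per strain and for the interaction were not used.

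Group means and SDs served as the statistics of a linear model in limma 3.58.1 (R 4.3.3), with a trend of the variance on the mean, on the linear scale of normalized reads, in place of a test on single libraries. Symbols of 2 members had turned into dates and were left as they stand. The model was tested on simulated data. SEs of log2 ratios, with a pseudocount of 1, come from the delta method. Libraries were called separated where means plus and minus 1.79 SD, widened by 0.05 for rounding, did not overlap, which gives a lower limit. The scales were the means as deposited, equal sums and equal medians over all promoters. Promoter classes were computed on GRCm38.p6 in windows of 500 bases (high class with a CG ratio over 0.75 and GC over 55%, low class with every ratio under 0.48). Exons and starts came from GENCODE, with bedtools 2.31.1. RefSeq promoter windows were matched by gene ID.

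Members and gene lists were chosen with earlier results of these data known. Named genes were, per strain and direction and for strain in controls, the 5 called promoters with the smallest p, separated ones first, the 5 highest and, with at least 30 CG sites, the 5 lowest, the 6 with the largest expression difference, up to 3 and every called promoter per list, interaction calls, and the 3 genes on each side of the threshold. Some of these genes are not reported here. Alternatives were both other scales, a log2 scale, a mean of at least 1, an expression difference of 3, a pseudocount of 0.1, and a comparison within bins of CG sites. Further tools were pandas 2.3.3, numpy 2.4.6 and matplotlib 3.10.9 in Python 3.11.15.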

Additional observations from a re-analysis of the deposited data

Results flagged for a closer look

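Sparc was the 1 Sertoli-high promoter called in limma's interaction contrast, with an adjusted p of 0.0283 on the means as deposited. The mean fell from 46.2 ± 14.6 to 15.9 ± 4.7 normalized reads in C57BL/6J and was 10.4 ± 8.7 and 14.7 ± 3.3 in FVB/N. The adjusted p of that contrast was 0.0290 with a mean of at least 1. The call was lost with equal sums (adjusted p = 0.773), equal medians (adjusted p = 0.654) and the log2 scale (adjusted p = 0.197). A Sparc value of 1 library far from the others of its group could not be looked for, since only group means and SDs were used.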

How the results depend on the processing

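In C57BL/6J the number of Sertoli-high promoters higher with DEHP moved from 29 to 123 with equal sums, 17 with equal medians, 14 with an expression difference of 3 (a smaller set by construction) and 17 on all 3 scales, a count added after the data were seen. The number lower moved from 141 to 30 with equal sums, 79 with a difference of 3 and 30 on all scales. In FVB/N the number higher moved from 11 to 7 with equal sums, 2 with equal medians, 7 with a difference of 3 and 2 on all scales, and the number lower from 8 to 46 with equal medians, 15 on a log2 scale and 4 with a difference of 3. Between the control strains the number higher moved from 21 to 2 with equal sums, 1 with equal medians, 32 with a mean of at least 1 and 1 on all scales, and the number lower from 1 to 0 with equal sums, with equal medians and on all scales. The interaction call of 1 promoter was 0 with equal sums, with equal medians, on the log2 scale and on all scales. At an unadjusted p under 0.05, 191 Sertoli-high promoters (14.6%) had an interaction in limma, beside 17.2% of all promoters. The cause of these moves was not tested, apart from the smaller sets. The median log2 ratios turned in sign with the scale. The median in C57BL/6J was -0.10 as deposited and 0.31 with equal sums. The median in FVB/N was 0.32 as deposited and -0.22 with equal medians. The strain median was 0.52 as deposited, -0.01 with equal sums and -0.05 with equal medians. With the median of the same bin of CG sites taken off each ratio, the C57BL/6J median was 0.06. That value is an offset from the bin, so its sign cannot be compared with the signs of the other medians. No paired analysis was possible because only group means and SDs were used, and for the same reason no library could be left out.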

Other observations

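The Sertoli-high promoters with few reads and those with many moved apart in C57BL/6J. At means over the groups of 2 to 5 reads, 462 promoters had a median log2 ratio of 0.12, and at 10 or more reads 207 promoters had -0.84, beside 0.23 and -0.78 over all promoters. In FVB/N the same medians were 0.50 and -0.11, beside 0.58 and -0.05. Fat1, the Sertoli-high promoter with the highest mean in both DEHP groups, was called lower in C57BL/6J as deposited (adjusted p = 0.0454 in limma) but not with equal sums. Irf9, a transcription factor of the interferon response, was lower in C57BL/6J as deposited and Helz2 on all scales (48.4 ± 11.1 to 20.1 ± 3.5 and 25.2 ± 7.8 to 8.1 ± 2.3), while in FVB/N Irf9 had 23.8 ± 8.5 and 24.2 ± 6.2 and Helz2 16 ± 6.1 and 10.3 ± 3.2. Both were named after their values were seen, and exons of Rnf31 reach into the Irf9 probe.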
